A study of Saccharomyces cerevisiae with 5 samples.

Results

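RNA levels of the WT strain of budding yeast, Saccharomyces cerevisiae, growing in rich medium are described here gene by gene. The members are the 5981 open reading frames (ORFs) whose systematic ID has the regular form of Y, a letter for the chromosome, L or R for the arm, 3 digits, and W or C for the strand. The table holds 6567 features in all. The strain is BY4741, a laboratory haploid of mating type a (MATa) whose labels give mutations in his3, leu2, met15 and ura3. Cells came from an asynchronous liquid culture in mid-log phase at 30 °C, and poly(A) RNA was sequenced on an Illumina HiSeq2000. The series also holds 4 INO80-complex mutants, which are not compared here. Levels are FPKM, the fragments per kilobase of gene scaled to all mapped fragments, and each gene has 1 value that stands for 2 biological replicates. Hence the values carry no measure of spread, and everything below is descriptive, without tests. The depth behind the values is unknown.

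Yeast given plenty of glucose breaks the sugar down by glycolysis and turns most of the pyruvate into ethanol, even in air. Genes for respiration, for the use of other carbon sources and for storage of carbohydrate are held lower in that state than when glucose is gone. Growth at full speed also calls for large numbers of ribosomes, and most ribosomal proteins are encoded by a pair of genes left from an old duplication of the whole genome. Such duplicated genes, called paralogues, often differ in when they are used.

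The 2 highest ORFs encode a-factor, the peptide pheromone that cells of mating type a release. MFA1 stood at 203133 FPKM and held 7.92% of the summed FPKM of all ORFs. MFA2 stood at 101730 FPKM and held 3.97%, so that MFA1 was 2.00 times as high. Both genes are very short, and their precursors end in a CaaX box, where the protein is cut, methylated and given a lipid tail. Whole coding sequences are shown because the message is so short and because the last 4 codons before the stop, in capitals, spell that box. They are from the R64 genome of RefSeq, on the plus strand, with MFA1 at chrIV:1385176-1385286 (111 bases) and MFA2 at chrXIV:352414-352530 (117 bases).
MFA1: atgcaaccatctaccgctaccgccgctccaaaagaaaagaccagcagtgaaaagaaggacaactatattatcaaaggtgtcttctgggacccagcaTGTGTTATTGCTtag
MFA2: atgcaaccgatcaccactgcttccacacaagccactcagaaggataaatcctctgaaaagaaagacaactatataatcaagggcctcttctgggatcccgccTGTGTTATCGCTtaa

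FPKM divides by length, so the rank of so short a gene depends on that division. Multiplying FPKM by coding length gives a quantity near the number of fragments; on that scale MFA1 was the 3rd ORF, with 1.54% of the total, and MFA2 the 8th, with 0.815%. The 3 ORFs of at most 150 coding bases, MFA1, MFA2 and OST4, held 13.1% of summed FPKM. A further 67 ORFs of up to 300 bases had a median of 783 FPKM, against 125 for 865 ORFs of up to 600 bases, 82.7 for 1743 of up to 1200 bases, 45.6 for 2035 of up to 2400 bases and 27.3 for 765 of up to 4800 bases. The 92 longer ORFs had a median of 13.6 FPKM. The highest of them was FKS1, which makes the glucan of the cell wall, at 152 FPKM. How much of this order comes from the length correction for short transcripts was not tested. Shares are given below on both scales where the scale matters.

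The other mating genes were lower than those of a-factor. STE2, the receptor that a cells use to sense the partner's pheromone, stood at 954 FPKM, and AGA2, a subunit of the a-cell agglutinin, at 998 FPKM. BAR1, the protease that degrades alpha-factor, was at 198 FPKM, STE6, the exporter of a-factor, at 85.5 FPKM, and ASG7 at 25.7 FPKM. Genes of the opposite mating type ran from 1.70 to 32.8 FPKM, which overlaps the level of ASG7. STE3, the receptor of alpha cells, was at 4.89 FPKM, 195 times below STE2. SAG1, the alpha-cell agglutinin, was at 27.9 FPKM, and the alpha-factor genes MF(ALPHA)1 and MF(ALPHA)2 were at 1.70 and 32.8 FPKM. STE2 above STE3 and MFA1 and MFA2 above MF(ALPHA)1 and MF(ALPHA)2 is the order that the MATa label gives.

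The labelled mutations were visible in 2 of 3 marker genes measured. LEU2, an enzyme of leucine synthesis, was at 0.0619 FPKM, and MET17 (another name of MET15), an enzyme of sulfur assimilation, at 0.482 FPKM. HIS3, an enzyme of histidine synthesis, was at 211 FPKM. The his3 allele of this strain family, as background, is an internal deletion that leaves the ends of the gene in place, and the table gives 1 value for the whole gene. URA3 was not analysed here.

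Across the 5981 ORFs the median was 52.5 FPKM and the mean 429 FPKM. The middle 50% of ORFs ran from 22.4 to 139 FPKM, a 6.21-fold range, while the 10th and 90th percentiles, 8.39 and 392 FPKM, were 46.8-fold apart. Between 10 and 100 FPKM lay 3344 ORFs, 55.9% of all. At or above 1 FPKM were 5844 ORFs (97.7%), at or above 1000 FPKM 276, and at or above 10000 FPKM 49. Summed FPKM was concentrated in few genes. The 10 highest ORFs held 22.8% of it, the 100 highest 59.7% and the 1000 highest 88.8%, and 65 ORFs made up 50%. The 2991 ORFs in the lower part of the range, up to the median, held 2.73%. By FPKM times coding length the concentration was smaller: the 10 highest held 12.2%, the 100 highest 39.7%, and 171 ORFs made up 50%.

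**Figure D1:**
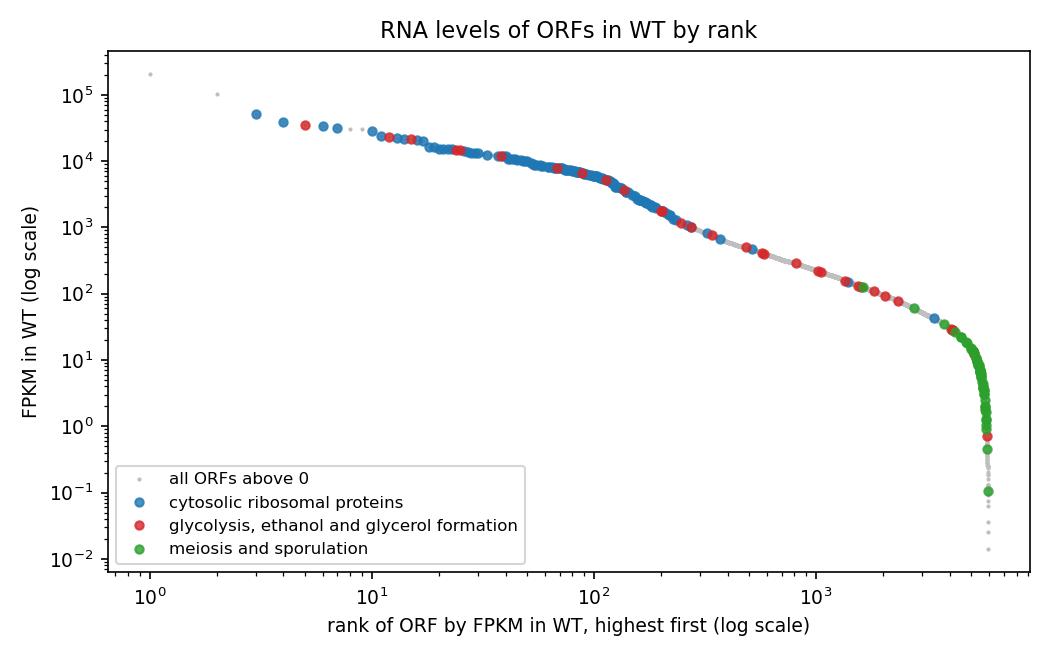
RNA level in WT (FPKM, log scale) of each ORF above 0 against its rank (log scale, highest first), with genes of 3 lists in colour. Ribosomal protein genes in blue fill most of the first 100 places, genes of glycolysis with ethanol and glycerol formation in red run from TDH3 at 34806 to PDC6 at 0.719 FPKM, and genes of meiosis and sporulation in green sit mostly at the lower end.

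Among the 20 highest ORFs, 13 encode proteins of the cytosolic ribosome and 11 are shorter than 300 coding bases. After the a-factor genes came RPS29B (51515 FPKM), RPS28A (39473), TDH3 (34806), RPS30B (34230), RPS29A (31415), OST4 (30796.5), CCW12 (30376) and RPL39 (28019). TDH3 encodes the main glyceraldehyde-3-phosphate dehydrogenase, OST4 a small subunit of the enzyme that attaches sugar chains to secreted proteins, and CCW12 an abundant mannoprotein of the cell wall. Next in order were RPL38 (24362 FPKM), FBA1 (22925), RPL30 (22251), RPS31 (21527), GPM1 (21362), RPS27B (20790), RPS20 (20472), RPL32 (16562), RPL31A (16279) and RPL37B (15468). FBA1 is aldolase, GPM1 is phosphoglycerate mutase, and RPS31 is made as a fusion of a ribosomal protein with ubiquitin. Ranked by FPKM times length, the first 10 were TDH3, FBA1, MFA1, ENO2, GPM1, ADH1, CCW12, MFA2, PDC1 and RPS31, so that 6 of the 10 belong to glycolysis or ethanol formation.

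The top decile of the range, 599 ORFs or 10% of all, began at 392 FPKM, and the bottom decile, again 10%, ended at 8.39 FPKM. The 127 cytosolic ribosomal protein genes with a regular ID had a median of 6765 FPKM and held 41.3% of summed FPKM, or 28.6% by FPKM times length. Without near-identical copies, which takes 90 of the 127 out, the share was 22.8%. Of them 125 lay in the top decile and 122 at or above 1000 FPKM. The 55 genes of the small subunit (RPS) had a median of 7816 FPKM, the 67 of the large subunit (RPL) 5981, and the 5 of the acidic stalk (RPP) 10033. Their median coding lengths of 432 bases for RPS and 483 for RPL also differ. Most of these genes have a twin so alike that shared reads make each value uncertain. The 37 without a near-identical copy had a median of 8737 FPKM. In the bottom places were RPL43A (42.6 FPKM), RPL15B (151), RPL7B (465) and RPL22A (669). The ID of the twin of RPL43A has another form, and that twin is not ranked. Introns are rare in this species. A gene was counted as having an intron where its annotated coding sequence is split into parts. That count misses introns before the start codon and can include joins without an intron, such as that of YML039W. By this count 82 of the ribosomal protein genes have an intron. Genes with an intron numbered 239 and held 26.0% of summed FPKM, with a median of 271 FPKM against 52.8 for those without. Outside the ribosomal proteins the 157 genes with an intron had a median of 106 FPKM. Within the ribosomal proteins the medians were 6657 FPKM with an intron and 6765 FPKM in the 45 without.

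The 17 genes of glycolysis held 4.92% of summed FPKM and 8.91% by FPKM times length, with 13 in the top decile. Hexokinase, the entry step, was carried by HXK2 at 1788 FPKM, with GLK1 at 93.0 and HXK1 at 29.5. PGI1, which turns glucose-6-phosphate into fructose-6-phosphate, stood at 1790 FPKM. The subunits of phosphofructokinase, the regulated step of the upper pathway, were close to each other, at 499 FPKM for PFK1 and 403 for PFK2. From the cleavage of the sugar onward the main genes lay higher. FBA1 was at 22925 FPKM, TPI1 (triosephosphate isomerase) at 11952, TDH3 at 34806, PGK1 (phosphoglycerate kinase) at 5264, GPM1 at 21362 and ENO2 (enolase) at 14860 FPKM. The last step, pyruvate kinase, lay lower, with CDC19 at 1024 FPKM, 34.0 times below TDH3 and 20.9 times below GPM1. TDH1, TDH2 and TDH3 together held 34.0% of the pathway's FPKM, but TDH2 (7909 FPKM), TDH3 and the low TDH1 (220 FPKM) have near-identical copies, as do ENO1 (1182 FPKM) and ENO2. Pyruvate decarboxylase, which opens the branch to ethanol, stood at 6625 FPKM in PDC1, 12.9 in PDC5 and 0.719 in PDC6. ADH1, the alcohol dehydrogenase that forms ethanol, was at 14565 FPKM. ADH2, which takes ethanol up again when glucose is gone, was at 28.8 FPKM. ADH3 in mitochondria was at 777 FPKM, ADH4 at 109 and ADH5 at 77.2. In the glycerol branch GPP1, a glycerol phosphatase, was at 3618 FPKM and GPP2 at 158, with GPD2 at 213 and GPD1 at 128 FPKM for the dehydrogenase before it. With ethanol and glycerol formation the 34 genes held 5.98% of summed FPKM and 11.1% by FPKM times length.

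**Figure D2:**
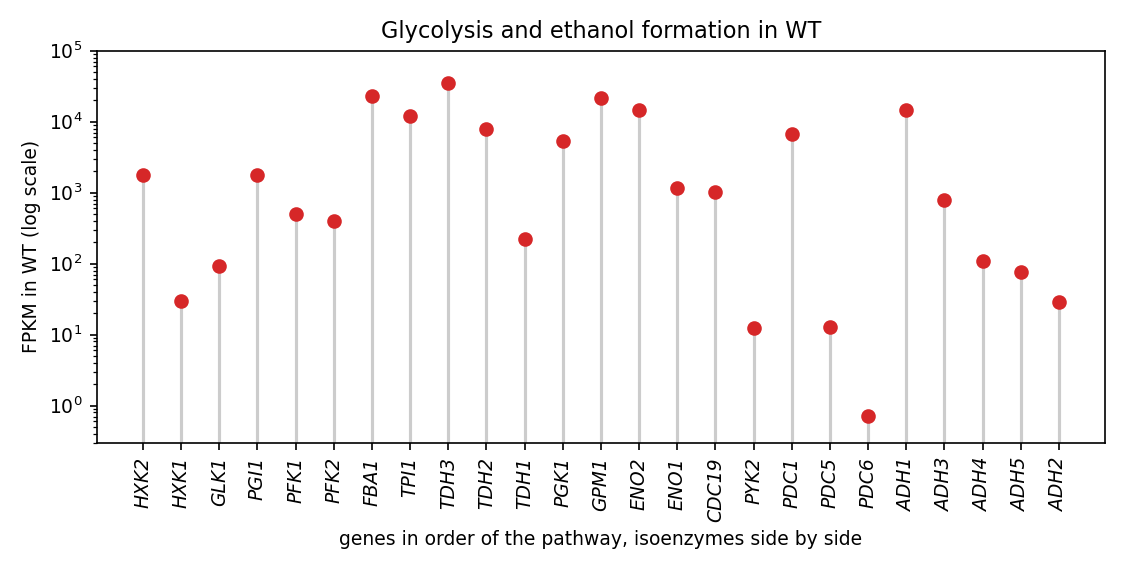
RNA level in WT (FPKM, log scale) of each gene of glycolysis and ethanol formation, in order of the pathway with isoenzymes side by side. At each step with isoenzymes 1 gene stands above the rest, while PFK1 and PFK2, which encode different subunits of 1 enzyme, are close.

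Sugar enters through hexose transporters, and 3 genes of 17 stood out. HXT3 was at 1301 FPKM, HXT2 at 355 and HXT1 at 257 FPKM. HXT4 followed at 42.2 FPKM, the glucose sensors RGT2 and SNF3 were at 19.4 and 11.7 FPKM, and 11 of the 17 genes fell in the bottom decile. Of those 11, 7 have a near-identical copy and uncertain values (HXT6, HXT7, HXT9, HXT11, HXT13, HXT15 and HXT17). The high-affinity transporters HXT6 and HXT7 were at 0.915 and 2.71 FPKM and are near-identical to each other. Other ways of using carbon were low. Gluconeogenesis and the glyoxylate cycle had a median of 8.93 FPKM over 15 genes, with MDH2 (malate dehydrogenase) highest at 157 FPKM, PCK1 (the entry to gluconeogenesis) at 8.93 and SIP4, an activator of these genes, at 0.856 FPKM. Genes of galactose, maltose and sucrose use had a median of 7.22 FPKM over 17, from MAL12 (maltase) at 1.24 to GAL80, the repressor of the galactose genes, at 92.5 FPKM. GAL1 (galactokinase) was at 8.01 FPKM and GAL2 (galactose permease), nearest the median, at 7.22 FPKM. Fatty acid oxidation and peroxisome genes had a median of 13.0 FPKM over 15, from CRC1, a carnitine carrier, at 1.10 to PEX11, which divides peroxisomes, at 112 FPKM. Mitochondrial functions held the middle and upper range of FPKM instead. The TCA cycle had a median of 131 FPKM over 16 genes, respiratory complexes III and IV 308 over 19, and the ATP synthase 315 over 12. Their median coding lengths were 1338, 390 and 504 bases. Those of the low lists above were 1674, 1746 and 2013 bases, in the order given. By FPKM times length the mitochondrial lists held 0.184%, 0.186% and 0.200% of the total, and the low lists 0.0363%, 0.0325% and 0.0243%. In the TCA cycle IDH2, a subunit of isocitrate dehydrogenase, was highest at 269 FPKM, SDH4 was near the median at 113, and the citrate synthase CIT3 was lowest at 10.8 FPKM. COX9 led the respiratory complexes with 2590 FPKM, COX6 was at their median, and CYC7 was lowest at 5.85 FPKM. In the ATP synthase the short ATP15 stood at 2891 FPKM, ATP7 was near the median at 319, and the inhibitor INH1 was lowest at 128 FPKM.

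Core histones, which wrap DNA into nucleosomes, were in the top decile in all 8 genes. HHF1 and HHF2 (histone H4) were at 6404 and 6210 FPKM, HHT2 and HHT1 (H3) at 6114 and 3410 FPKM. HTB1 and HTB2 (H2B) were at 5307 and 4060 FPKM, HTA1 and HTA2 (H2A) at 4052 and 3169 FPKM. From highest to lowest the 8 spanned 2.02-fold, although 6 of them have near-identical copies. Translation elongation factors had a median of 1617 FPKM over 11 genes, that of TEF1, which shares elongation factor 1A with TEF2 (2034 FPKM). HYP2, which makes eIF5A, led with 6051 FPKM, and HEF3 was lowest with 4.23 FPKM. EFT1 and EFT2, which encode the same elongation factor 2, were at 157 and 338 FPKM. Initiation factors had a median of 361 FPKM over 28 genes, from TIF4632 (a form of eIF4G) at 41.5 through SUI2 (a subunit of eIF2) at 367 to SUI1 (eIF1) at 3085 FPKM.

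Of 54 gene lists, 9 had a median in the top decile and 7 in the bottom decile. The 7 were hexose transporters and sensors, galactose, maltose and sucrose use, meiosis and sporulation, flocculins and adhesins, seripauperins, Y' element helicases and genotype markers. The helicases are only 2 genes, both with near-identical copies. The markers are the 3 genes measured that the strain labels give as mutated. Above 392 FPKM, besides ribosomal proteins, histones, glycolysis, elongation factors and the a-specific genes, lay the proton pumps of plasma membrane and vacuole (561 FPKM over 15 genes), chaperones (484 over 26), thiol redox and superoxide defence (473 over 20) and purine synthesis (452 over 18). Among the pumps VMA3, a membrane subunit of the vacuolar ATPase, led with 3069 FPKM and PMA2 was lowest with 6.89 FPKM. CPR1, a cyclophilin, led the chaperones with 5605 FPKM, SSC1 (the mitochondrial Hsp70) stood near their median at 450 FPKM, and SSE2 was lowest at 13.1 FPKM. The peroxiredoxin TSA1 led redox defence with 7358 FPKM, the mitochondrial superoxide dismutase SOD2 was near its median at 470, and the catalase CTT1 closed it at 9.12 FPKM. ADE13 led purine synthesis with 1342 FPKM, IMD3 was near its median at 507 and IMD2, like IMD3 a form of IMP dehydrogenase, closed it with 148 FPKM.

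**Figure D3:**
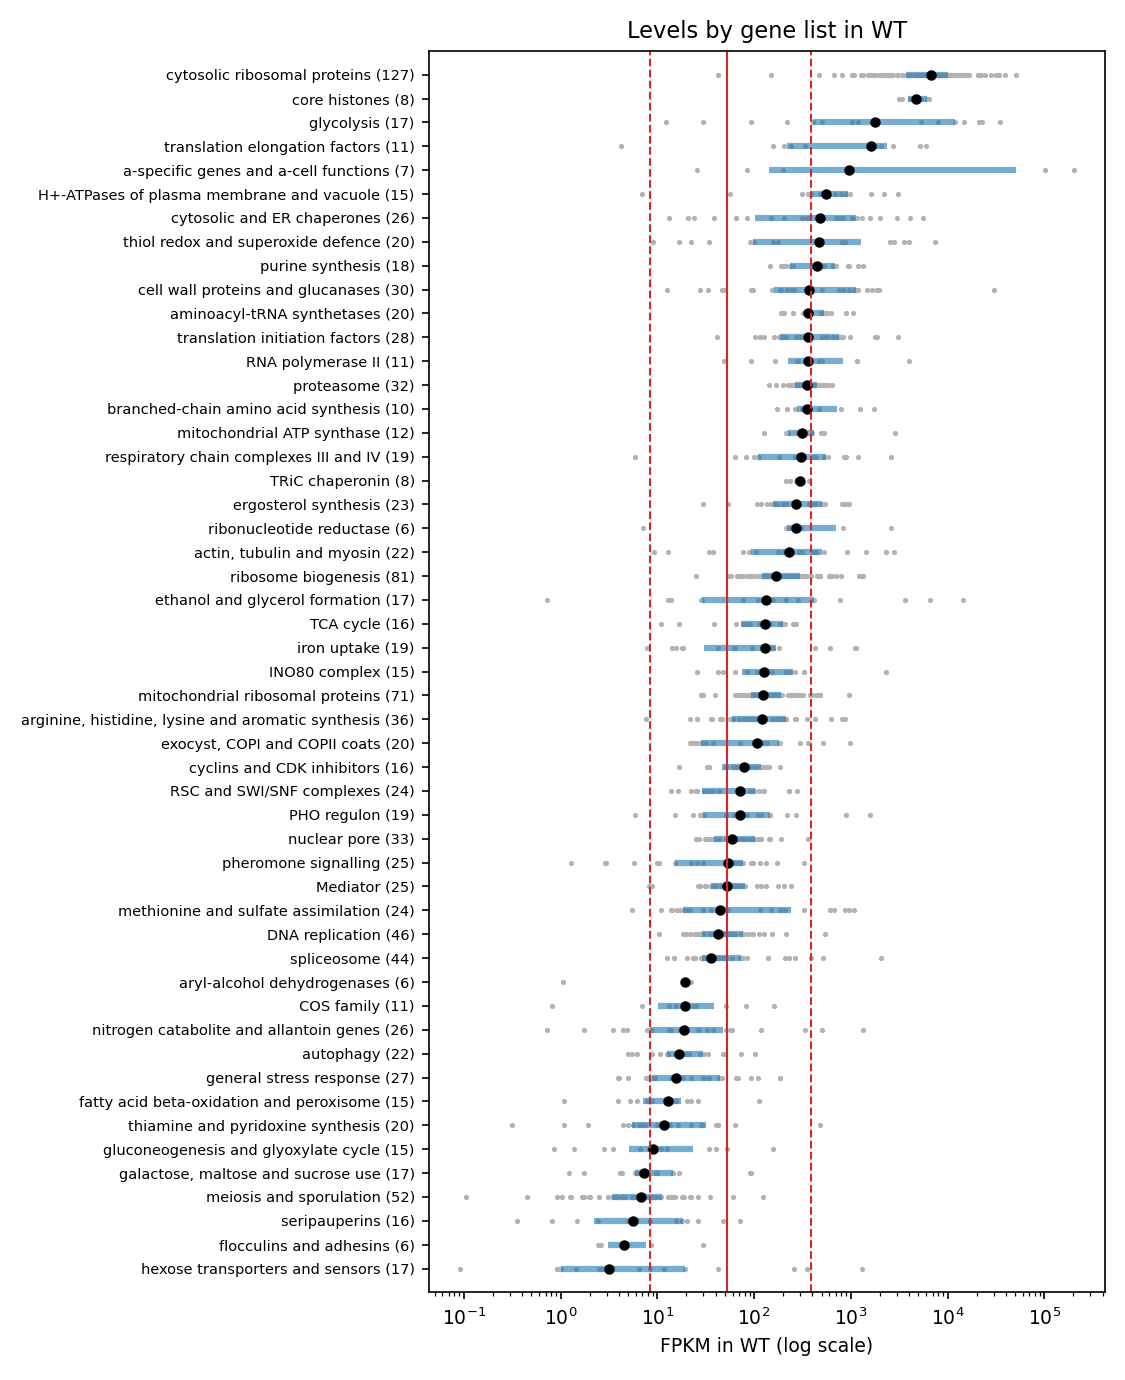
RNA levels in WT (FPKM, log scale) by gene list, for lists of at least 6 measured genes (number in brackets). Grey points are genes above 0, blue bars run from the lower to the upper quartile, black points are medians, and red lines mark the median of all ORFs (solid, 52.5 FPKM) and the limits of the bottom and top decile (dashed, 8.39 and 392 FPKM).

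Subunits of some complexes had levels close together. The SD of log2(FPKM + 1) was 0.25 over the 8 genes of TRiC, the ring chaperonin that folds actin and tubulin, against 2.33 over all ORFs. CCT4 was highest at 367 FPKM, followed by CCT7 (316), CCT6 (312), CCT2 (307), CCT3 (296), CCT5 (275), CCT8 (233) and TCP1 (215). The 32 proteasome genes, whose SD was 0.53, ran from RPN1 at 143 to PRE1 at 639 FPKM with PUP3 next to the median of 352. Aminoacyl-tRNA synthetases, the 20 enzymes that load tRNAs, had an SD of 0.67 and ran from CDC60 (leucine) at 190 to KRS1 (lysine) at 1052 FPKM. RNA polymerase II was spread more widely, with an SD of 1.77 over 11 genes. Its large subunits RPO21 and RPB2 were at 49.2 and 92.4 FPKM, RPB9 at 359 FPKM and the small RPB10 at 4020 FPKM. Within that enzyme the rank correlation of level with coding length was -0.86 over 11 genes; within the proteasome it was -0.74 over 32 and within TRiC -0.64 over 8. The values of these genes all come from the same 2 replicates, and the correlations are a description.

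Factors that build ribosomes stood well below the ribosomal proteins themselves. The 81 genes of ribosome biogenesis had a median of 167 FPKM, with 14 in the top decile. NHP2, a protein of the pseudouridylation particles, was highest at 1349 FPKM, RRP8, which methylates rRNA, was at the median, and UTP20, a very large protein of the early particle, was lowest at 25.04 FPKM. Mitochondrial ribosomal proteins had a median of 124 FPKM over 71 genes. They ran from MRPL38 at 28.3 FPKM through MRPL22 (124) to MRPL39 at 951 FPKM.

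Lists of other biosynthetic and uptake paths were spread on both sides of the overall median of 52.5 FPKM. Ergosterol synthesis, which makes the sterol of yeast membranes, had a median of 274 FPKM over 23 genes, from HMG2 at 29.4 through ERG9 (274) to ERG3 at 967 FPKM. Branched-chain amino acid synthesis had a median of 352 FPKM over 10 genes, from LEU9 at 175 through BAT2 (372) to ILV5 at 1745 FPKM. That list leaves out the mutated marker gene LEU2, whose lower level is given above. Methionine and sulfate genes were split, with a median of 44.7 FPKM over 24. SAH1, which clears the by-product of methylation, was at 1087 FPKM, MET12 near the median at 53.6, and STR3 at 5.45 FPKM. The marker gene MET17, lower than all of these, is not in that list. The sulfate permeases SUL1 and SUL2 were at 13.8 and 14.3 FPKM. Iron uptake had a median of 129 FPKM over 19 genes, from the reductase FRE2 at 7.78 through SMF3 (129) to the wall protein FIT3 at 1123 FPKM.

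The 15 genes of the INO80 complex, which moves nucleosomes and is the subject of the series, had a median of 128 FPKM in WT. ACT1, which is shared with the whole actin cytoskeleton, was at 2314 FPKM, IES3 was at the median, and INO80, the motor subunit, was lowest at 25.7 FPKM. ARP5 stood at 63.9 FPKM, ARP8 at 42.0 and IES6 at 237 FPKM. Level and coding length had a rank correlation of -0.72 over these 15 genes.

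Genes of meiosis, the stress response, autophagy and cell adhesion lay low in the range. The 52 genes of meiosis and sporulation had a median of 6.76 FPKM, with 32 in the bottom decile. CDA2, a chitin deacetylase of the spore wall, was lowest at 0.106 FPKM, SPS2, at 6.89 FPKM, lay nearest the median and SPR6 was highest at 124 FPKM. IME1, the master activator of meiosis, was at 22.2 FPKM and NDT80, which drives the middle genes, at 17.9 FPKM. The 27 genes of the general stress response had a median of 15.8 FPKM, with 7 in the bottom decile. PNC1 (nicotinamidase) led them with 186 FPKM, TPS1 (trehalose synthesis) was at 109, HSP12 (a membrane stress protein) at 93.1, GLC3 (glycogen branching), nearest the median, at 15.8, and SOL4 was lowest at 3.94 FPKM. Autophagy genes had a median of 16.6 FPKM over 22, from ATG2 at 4.95 to ATG5 at 102 FPKM. The 6 genes listed under flocculins and adhesins, cell surface proteins that stick cells together, had a median of 4.54 FPKM. They ran from FLO1 at 2.42 through FLO11 (2.63), FLO9 (4.37), FLO10 (4.71) and FLO5 (8.59) to FLO8 at 29.6 FPKM. FLO8 encodes an activator of such genes and is not itself a surface protein. The 16 seripauperins, a family near chromosome ends, had a median of 5.58 FPKM, and 15 have near-identical copies. They ran from PAU10, listed at 0, through PAU12 (5.59 FPKM) to PAU7 at 71.3 FPKM. Nitrogen catabolite and allantoin genes had a median of 18.9 FPKM over 26, but GLN1, glutamine synthetase, was at 1348 FPKM, and DAL80, a repressor of the group, at 0.725 FPKM.

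Below 1 FPKM lay 137 ORFs, 2.29% of all, and 43 of them were listed at 0. Of the 137, 48 are not in the annotation used and 41 have a near-identical copy. Of the 89 with a known position, 37 lie within 20 kb of a chromosome end. Among all 5981 ORFs, 401 are not in the annotation and 280 have a near-identical copy. Of the 5580 with a known position, 93 lie within 10 kb of an end and 111 from 10 to 20 kb. Ranked by level and then by ID, the first 10 annotated ORFs of at least 300 coding bases were all listed at 0: YBR027C, YBR209W, COS2, VBA3, PAU10, YGL088W, YHR125W, YIL177C, YJL028W and YJR079W. Of these, COS2, VBA3, PAU10, YIL177C and YJR079W have near-identical copies and YGL088W overlaps another gene, so that a 0 there is uncertain. When annotated ORFs of at least 300 bases with no near-identical copy and no overlapping gene were taken, 5131 in number, 41 lay below 1 FPKM. Among these were LEU2, the sporulation genes CDA2, SPR2 (0.261 FPKM), OSW1 (0.248) and SPO19 (0.453), the transporter genes HXT14 (0.0915) and HXT10 (0.945), PDC6 (0.719), DAL80, the regulator MET28 of sulfur metabolism (0.129), SIP4 and the formate dehydrogenase FDH1 (0.944).

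Position on the chromosome went with level. Within 10 kb of a chromosome end the median of 93 ORFs was 4.74 FPKM, and 63.4% lay in the bottom decile. Families near the ends, such as the seripauperins, hold near-identical copies with uncertain values. How much such copies add to the trend was not tested. From 10 to 20 kb it was 14.5 FPKM over 111 ORFs, from 20 to 30 kb 34.0 over 128, and from 30 to 50 kb 54.8 over 289, against 58.5 FPKM over 4206 ORFs more than 100 kb inside. The share in the bottom decile was 38.7%, 19.5%, 7.61% and 6.35% in the same order. Inside 20 kb, 5 ORFs reached the top decile: COX14 (1195 FPKM, assembly of cytochrome oxidase), CHA1 (569, serine and threonine breakdown), HYR1 (465, a peroxidase), ADH6 (415, an alcohol dehydrogenase) and ERG13 (410, an early enzyme of sterol synthesis). Over all ORFs outside the ribosomal proteins the rank correlation of level with distance to the end was 0.092 (n = 5443).

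Highly expressed genes of this species use a small set of codons read by abundant tRNAs. A codon adaptation index was computed for each ORF from the codon use of the 127 ribosomal protein genes, which were then left out. From the lowest to the fifth decile of the other ORFs its median stayed between 0.172 and 0.175. In the eighth, ninth and highest decile it was 0.199, 0.229 and 0.316. The rank correlation of index and level was 0.40 over 5443 ORFs, 0.56 over the 446 in the top decile and 0.017 over the 2706 below the median. The correlation of level with coding length was -0.34 and with GC content 0.21 over the same 5443 ORFs. These are correlations across genes, which are not independent replicates.

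**Figure D4:**
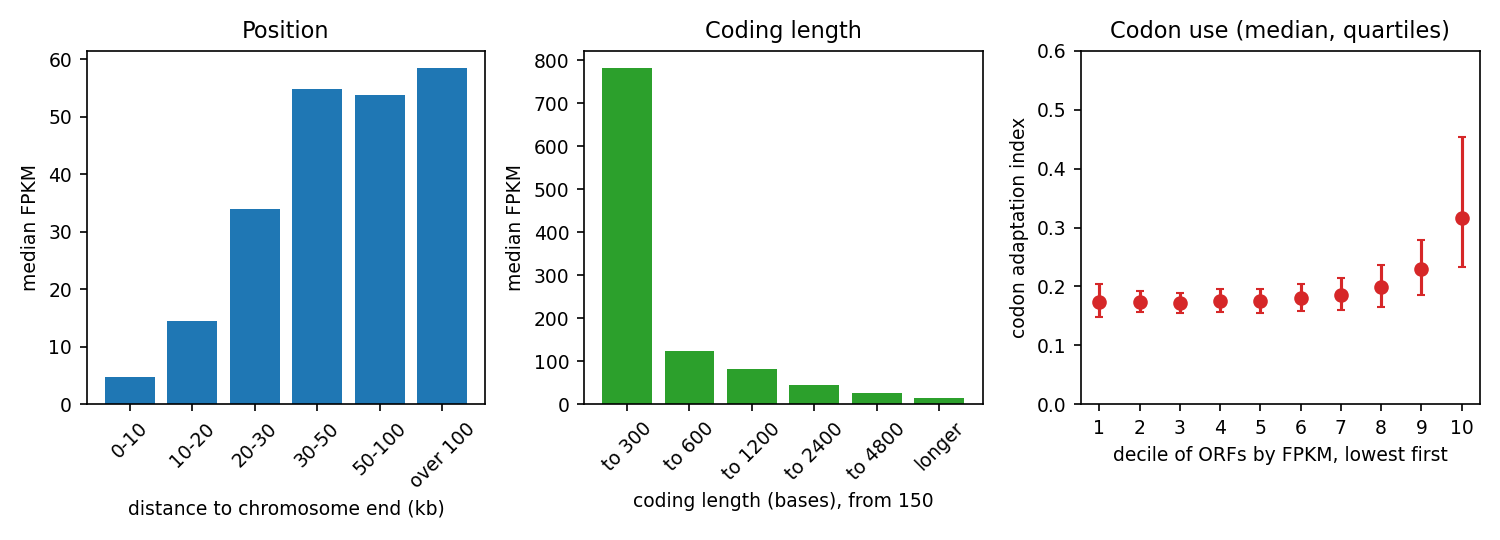
Median FPKM in WT of ORFs by distance to the nearest chromosome end (left) and by coding length (middle), and the codon adaptation index by decile of ORFs by level (right, median with lower and upper quartile, ribosomal proteins left out). Levels are lowest within 10 kb of the ends (4.74 FPKM) and in the longest ORFs (13.6 FPKM), and the index climbs over the highest 3 deciles. Near-identical copies, whose values are uncertain, are included.

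Paralogue pairs were found by comparing all proteins and keeping reciprocal best matches with at least 40% identity over at least 70% of both. Of 466 pairs, 101 were near-identical in coding sequence and were set aside, since reads shared by copies make their split uncertain. In 224 of the other 365, 61.4%, the members were at least 2-fold apart, and in 74, 20.3%, at least 10-fold apart. Fold here is the ratio of FPKM + 1. The median fold was 2.59, with quartiles of 1.56 and 7.10. Where the higher member was in the top decile of all ORFs (93 pairs) the median fold was 8.58, and 44 of the 93 were at least 10-fold apart. In the other 272 pairs the median fold was 2.07, and 30 were at least 10-fold apart. A pair with a high member can span a wider range, and both members were in the top decile in 22 pairs.

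The 15 pairs farthest apart were led by YEF3 and HEF3, which encode forms of the fungal elongation factor 3, at 2703 and 4.23 FPKM (517-fold). ADH1 and ADH2 stood at 14565 and 28.8 FPKM (489-fold), and PDC1 and PDC5 at 6625 and 12.9 FPKM (475-fold). MPC2 and MPC3, subunits of the mitochondrial pyruvate carrier, were at 1247 and 2.86 FPKM. MPC3 is known as the form used in respiratory growth. The plasma membrane proton pumps PMA1 and PMA2 were at 2204 and 6.89 FPKM, the NADPH dehydrogenases OYE2 and OYE3 at 924 and 3.18, and the peroxiredoxins TSA1 and TSA2 at 7358 and 34.5. HXT2 and HXT10 were at 355 and 0.945 FPKM. The pentose phosphate pathway, which makes NADPH and ribose, gave 3 such pairs. GND1 and GND2 were at 648 and 4.05 FPKM, TAL1 and NQM1 at 1002 and 8.39, and TKL1 and TKL2 at 660 and 8.07. The pyruvate kinases CDC19 and PYK2 were at 1024 and 12.3 FPKM. MRH1 and YRO2 (2255 and 28.9 FPKM) encode proteins of the plasma membrane, YPQ1 and RTC2 (314 and 3.75) transporters of the vacuole, and EXG1 and SPR1 (959 and 13.7) glucanases, SPR1 in the spore. In all 15 pairs the lower member was at most 34.5 FPKM, below the median of all ORFs.

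Codon use of such members was compared next. Below are the first 60 coding bases of the 3 pairs farthest apart and of the pyruvate kinases, shown so that codon use can be read side by side in similar genes. Capitals mark codons that are the most used for their amino acid in the ribosomal protein genes. Positions are on R64: YEF3 at chrXII:636780-636839 (plus), HEF3 at chrXIV:606319-606378 (plus), ADH1 at chrXV:160535-160594 (minus), ADH2 at chrXIII:874278-874337 (minus), PDC1 at chrXII:234022-234081 (minus), PDC5 at chrXII:410723-410782 (plus), CDC19 at chrI:71786-71845 (plus) and PYK2 at chrXV:986403-986462 (minus).
YEF3: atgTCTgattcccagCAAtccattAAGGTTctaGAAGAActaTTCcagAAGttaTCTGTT
HEF3: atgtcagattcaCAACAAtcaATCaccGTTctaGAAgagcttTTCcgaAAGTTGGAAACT
ADH1: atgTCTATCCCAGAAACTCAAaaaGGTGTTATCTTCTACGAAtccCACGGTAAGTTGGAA
ADH2: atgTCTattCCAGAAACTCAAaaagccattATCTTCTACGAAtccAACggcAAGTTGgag
PDC1: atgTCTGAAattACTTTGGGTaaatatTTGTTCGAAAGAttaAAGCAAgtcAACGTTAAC
PDC5: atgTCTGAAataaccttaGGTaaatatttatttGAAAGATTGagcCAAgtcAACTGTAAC
CDC19: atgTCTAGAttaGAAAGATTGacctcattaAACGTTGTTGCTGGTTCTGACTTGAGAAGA
PYK2: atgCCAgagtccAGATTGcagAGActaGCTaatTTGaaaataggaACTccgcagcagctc

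Marked codons numbered 17 in the ADH1 stretch and 12 in that of ADH2, 14 in PDC1 and 10 in PDC5, and 15 in CDC19 and 7 in PYK2. In YEF3 and HEF3 the first stretch held 10 each, although over the whole gene 77.1% of YEF3 codons and 42.3% of HEF3 codons were marked, leaving out methionine and tryptophan. The same whole-gene shares were 78.6% and 67.8% for ADH1 and ADH2, 79.7% and 74.2% for PDC1 and PDC5, and 77.5% and 40.9% for CDC19 and PYK2. Over all compared pairs the member with the higher level had the higher codon index in 71 of 74 pairs at least 10-fold apart and in 186 of 224 pairs (83.0%) at least 2-fold apart. Under 2-fold it did so in 79 of 141 pairs (56.0%). The compared pairs include 6 of ribosomal proteins, whose genes served to build the index. Of these 6, 4 were at least 2-fold apart and 0 at least 10-fold.

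**Figure D5:**
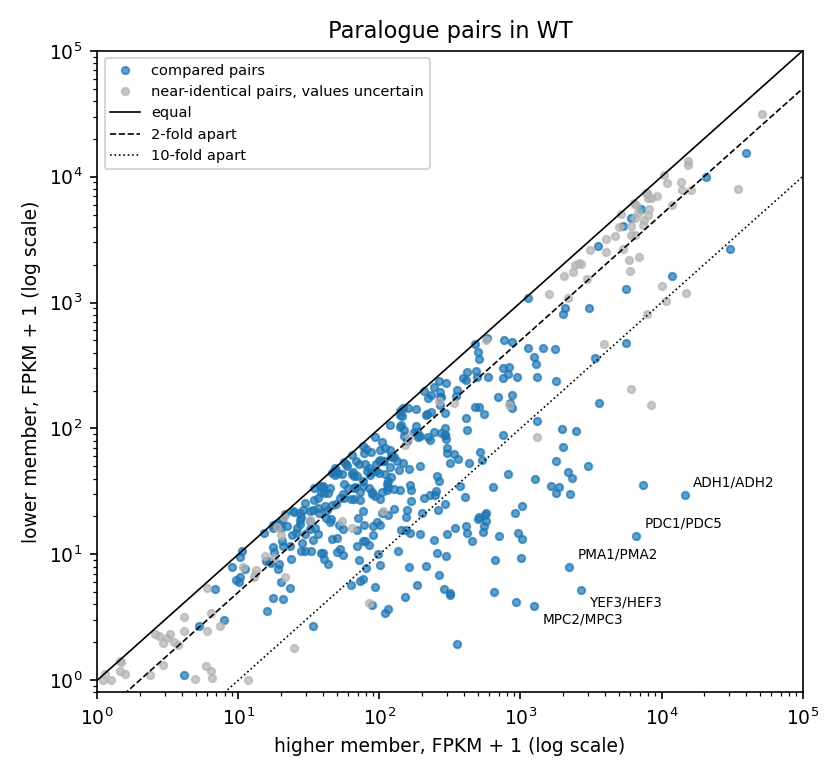
FPKM + 1 in WT of the higher and the lower member of each paralogue pair (both axes log scale), with the 5 pairs farthest apart named. Blue points are the 365 compared pairs, grey points the 101 near-identical pairs whose split is uncertain, and lines mark equal levels and differences of 2-fold and 10-fold. Points with a high member spread furthest below the line of equal levels.

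At the other end, 10 pairs with a mean of at least 100 FPKM were closest. DBP8 and RRP3, RNA helicases of ribosome biogenesis, were at 139 and 137 FPKM, and PRS2 and PRS4, which make the sugar phosphate for nucleotides, at 146 and 143. GPX2 and HYR1, glutathione peroxidases, were at 476 and 465 FPKM, and HSP150 and PIR1, cell wall proteins, at 1135 and 1089. IZH2 and IZH1, membrane proteins linked to zinc, were at 207 and 198 FPKM, YBR242W and YGK1 at 158 and 145, and CPT1 and EPT1, which finish phospholipid synthesis, at 139 and 127. ASN2 and ASN1 (asparagine synthetase) stood at 580 and 523 FPKM, the G1 cyclins CLN1 and CLN2 at 117 and 105, and RAS2 and RAS1, the GTPases of nutrient signalling, at 265 and 236. RAS2 and RAS1 were the farthest apart of the 10, at 1.12-fold.

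Further known pairs, picked by function as examples, are given here. The widest of the 161 known pairs were PDC1 with PDC6 (6625 and 0.719 FPKM, 3854-fold) and GPM1 with GPM2 (21362 and 15.8 FPKM, 1273-fold), which are not reciprocal best matches at the limits used above. Among chaperones SSE1 stood at 703 FPKM and SSE2 at 13.1 FPKM, and the heat-induced SSA4 and SSA3 were both low, at 23.7 and 20.7 FPKM. HSC82 and HSP82 (Hsp90) were at 1305 and 85.2 FPKM and SSA2 and SSA1 at 827 and 151, but both pairs are near-identical. Among mitochondrial carriers PET9, the main ADP/ATP exchanger, was at 313 FPKM, AAC3, the form of low oxygen, at 52.6 and AAC1 at 14.8 FPKM. The phosphate carriers MIR1 and PIC2 were at 376 and 36.4 FPKM, and the outer membrane channels POR1 and POR2 at 753 and 86.9. In pairs known to be switched by oxygen the aerobic form was the higher: CYC1 was at 263 FPKM and CYC7 at 5.85 (cytochrome c), COX5A at 293 and COX5B at 100, HYP2 at 6051 and ANB1 at 203, the last pair near-identical. In translation TEF4 was at 1788 FPKM and its paralogue CAM1 at 239 FPKM (7.45-fold), and TIF2 and TIF1, which encode the same eIF4A, at 573 and 502.

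Ribosomal protein pairs had a median fold of 1.51 over 49 pairs, with 15 (30.6%) at least 2-fold apart, but 43 of them are near-identical and their split is uncertain. All 101 near-identical pairs, which include these 43, had a median fold of 1.64 and 33 pairs (32.7%) at least 2-fold apart. Widest were RPL15A and RPL15B at 8445 and 151 FPKM (55.4-fold) and RPS14A and RPS14B at 10700 and 1020 FPKM (10.5-fold). Among the 6 that are not near-identical, RPS22A and RPS22B were at 11868 and 1626 FPKM (7.30-fold), RPS7A and RPS7B at 5596 and 1288 (4.34-fold), the median fold was 2.32, and 4 of the 6 were at least 2-fold apart.

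Short motifs were searched on both strands of the 500 bases before each start codon, in 5564 ORFs. The letters GCGATGAG, the core of the PAC element known from genes of ribosome biogenesis, were found before 44 of 81 genes of that list (54.3%) and before 5.07% of all ORFs. Since the element is known from such genes, its share in that list is no independent evidence. By level the letters GCGATGAG were found before 1.80% of ORFs in the lowest decile, 10.3% in the ninth and 5.57% in the highest. The letters AGGGG, the core of the stress response element bound by Msn2 and Msn4, were found before 25 of 27 general stress genes (92.6%) and before 34.3% of all ORFs. The list was drawn up from knowledge of that element's targets, and so its share is no independent evidence. By level AGGGG was found before 41.3% of ORFs in the lowest decile and 32.9% in the highest. TTACCCG, the core that Reb1 binds, was found before 4.49% of the lowest decile, 16.4% of the ninth, 13.6% of the highest and 10.5% of all. Among ribosomal protein genes its share was 4.72%. TATAAA was found before 29 of 34 genes of glycolysis with ethanol and glycerol formation (85.3%), 46.5% of ribosomal protein genes and 3341 of all 5564. A strict form of the Rap1 consensus was found before 14 ORFs, 4 of them ribosomal protein genes. Within 250 bases it was found before 5 ORFs, 0 of them ribosomal protein genes. So few matches cannot tell lists apart, and they do not show that Rap1 sites are lacking. No pair of these motifs contains the other, though single bases can be shared. A match is a run of letters, not evidence of binding.

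The windows below show the match nearest the start codon in the 3 highest genes of each list that have one, in the direction of the gene and with the matched letters in capitals. The first 3 are from ribosome biogenesis genes: DBP2, an RNA helicase (697 FPKM), at chrXIV:413473-413502 (plus), NSR1, a nucleolar protein (589 FPKM), at chrVII:807825-807854 (minus), and BRX1, an assembly factor of the large subunit (486 FPKM), at chrXV:186851-186880 (minus). Their matches, read on the opposite strand, start 155, 187 and 146 bases before the start codon. The others are from stress genes: PNC1 at chrVII:428159-428187 (minus), YGP1, a secreted glycoprotein (185 FPKM), at chrXIV:336099-336127 (plus) and TPS1 at chrII:490615-490643 (minus), with matches starting 228, 434 and 239 bases before the start codon.
DBP2: ttacgccgatgCTCATCGCagaaaattttt
NSR1: tgcaagggcagCTCATCGCaagaacgaaaa
BRX1: aattttagatgCTCATCGCgatggttctca
PNC1: tcttcaaggggcAGGGGtttccgtttggc
YGP1: acttctcgaagaAGGGGccgaaaattagc
TPS1: gcaggggctctcAGGGGggcgccatggac

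PNC1 held 4 matches in its 500 bases, TPS1 6 and YGP1 1, and the genes of ribosome biogenesis shown held 1 each.

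Genes without a name or without an annotation sat lower than the rest. The 5088 annotated ORFs with a gene symbol had a median of 59.2 FPKM, with 562 in the top decile and 309 in the bottom decile. The 492 annotated ORFs with no symbol had a median of 22.2 FPKM, with 9 and 151. The 401 ORFs not in the annotation used had a median of 22.1 FPKM and held 5.02% of summed FPKM, with 28 in the top decile and 139 in the bottom decile. Of the 100 highest ORFs 8 were of this kind, and all 401 count in the shares of summed FPKM. Highest among them were YGL102C (12849 FPKM), YJL188C (12631) and YPL142C (12347.5). By their IDs, YJL188C and YPL142C are numbered next to RPL39 (YJL189W) and RPL33A (YPL143W), on the opposite strand. Whether reads of neighbouring genes add to the value of any of these ORFs, YGL102C included, was not tested. ORFs not in the annotation have no position here, and no gene name is given to them.

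High levels were also found outside the lists. Their 1252 genes held 73.5% of summed FPKM and 338 of the 599 ORFs in the top decile. After OST4 the highest annotated ORFs in no list were PMP3, a small membrane protein (12424 FPKM), TMA19, the yeast form of the translationally controlled tumour protein (8343), ZEO1, a plasma membrane protein (8229), ASC1, a protein bound to the small ribosomal subunit whose gene overlaps another feature (5820), STM1, which binds idle ribosomes (3610), FPR1, the target of rapamycin and FK506 (3369), ACB1, which carries acyl-CoA (3357), and PSA1, which makes GDP-mannose (3321). These genes were chosen after their values were seen, as the highest of those not listed.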

How the data were processed

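The deposited table holds FPKM values computed by the authors, 1 per strain for 2 biological replicates. Per the submitters' processing notes, TopHat2 and Cuffdiff were used on build sacCer3, the same assembly as the R64 RefSeq annotation used here for names, positions and coding sequences. Of 5981 ORFs, 5580 matched that annotation. Versions, the treatment of reads shared by copies, and strand settings are not given in the sources used here. Overlapping genes (156) and genes with near-identical copies (280, blastn 2.17.0, at least 90% identity over 50% of the length) are therefore uncertain. ORFs not in the annotation could not be checked for overlap or copies. Counts are not given, and neither intervals nor detection limits were computed.

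Only the WT column was used, as a description with no test. Paralogues were reciprocal best blastp matches (e-value 1e-20), with fold as the ratio of FPKM plus a pseudocount of 1. Named genes were the 20 highest ORFs, the 10 lowest annotated ORFs of at least 300 bases, the highest, lowest and middle members of each list described, lists of at most 8 genes in full, the marker and mating genes, the 15 farthest and 10 closest pairs (mean at least 100 FPKM), and known pairs of selected functions. Some of the 161 known pairs were added to the text as examples. The steps were tested on simulated data. Members and lists were chosen with earlier results of these data known. Python 3.11.15, pandas 2.3.3 and biopython 1.88 were used.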

Additional observations from a re-analysis of the deposited data

How the results depend on the processing

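Of 51 alternative settings over 14 results, 40 gave a value within 1.5 times that reported (for a rank correlation, within 0.1), 11 moved further and 0 reversed. Only the rank correlation could have reversed, since shares, counts and medians cannot be negative. The share of the 10 highest ORFs was 12.8% among annotated ORFs of at least 300 coding bases and 12.2% by FPKM times coding length, and that of the 100 highest was 39.7% by FPKM times length. ORFs below 1 FPKM numbered 89 among annotated ORFs and 84 among those of at least 300 bases, and 209 lay below 2 FPKM. Ribosomal proteins held 22.8% without near-identical copies, and glycolysis with ethanol and glycerol formation 11.1% by FPKM times length. At 60% identity 119 of 173 pairs were at least 2-fold apart, a count that moved on a base smaller than the 365 pairs above. In 250 bases, the Rap1 consensus was found before 0.180% and AGGGG before 18.3% of the highest decile; a shorter window holds fewer matches by construction. The pairs without any near-identical copy or short member, and the codon index of ORFs of at least 300 bases, were settings chosen after seeing the data. No paired analysis was possible because each strain has 1 value. Leaving out a replicate was not possible for the same reason. Depth is unknown, so low values have no stated precision.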

Other observations

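The table holds 586 features with another form of ID, such as ORFs added later and small RNAs, which are left out of the ranks above. They held 24.2% of the FPKM summed over all features, with a median of 73.9 FPKM, and 12 of them lay above 10000 FPKM. The highest was YKL156C-A at 139677 FPKM, which is not in the annotation used. By its ID it shares the number of RPS27A (YKL156W), on the opposite strand. Whether reads of RPS27A add to its value was not tested. YDR524C-B followed at 87367 FPKM. PMP1 and PMP2, small proteolipids that associate with the plasma membrane proton pump, were at 72301 and 39777 FPKM, and have near-identical copies. The ribosomal protein genes RPL29 and RPS30A were at 53987 and 44216.5 FPKM, and CWP2, a cell wall mannoprotein, at 26662 FPKM. Of 53 features named as small nuclear or nucleolar RNAs (snR), 5 were listed at 0, and their median was 167 FPKM in this poly(A) RNA. The highest was snR18 at 8091 FPKM.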
